A study of Mus musculus with 6 samples.

Results

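The insulin-like growth factor (IGF) genes examined here were 2 ligand genes (Igf1 and Igf2), 2 receptor genes (Igf1r and Igf2r), 5 binding protein genes (Igfbp3, Igfbp4, Igfbp5, Igfbp6 and Igfbp7) and the protease gene Pappa. They were listed by name, without use of their values, and each matched a single Entrez gene ID, giving 10 of the 27179 IDs in each count table. Satellite cells, the Pax7-expressing stem cells of skeletal muscle, were sorted by flow cytometry from the muscle of wild-type C57Bl/6N mice given either a high-fat diet or chow, and 3 libraries were made for each diet. The labels give no age, sex or duration of feeding, and leave unsaid whether each replicate is a separate animal, so that p-values measure no more than the spread among libraries, some of which may be technical. At least 50000 cells per replicate were collected, ribosomal RNA was depleted, and single reads of 75 bases were sequenced. The series set satellite cells of obese mice against those of lean mice, and the question asked here is how the IGF genes differed between the diets.

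Both IGF ligands act through the IGF1 receptor, a tyrosine kinase that recruits the insulin receptor substrates and promotes growth, survival and, in myoblasts, proliferation and differentiation. The IGF2 receptor, which is also the cation-independent mannose 6-phosphate receptor, takes up IGF2 for degradation in lysosomes. Most IGF outside cells is held by binding proteins, which limit or prolong its access to the receptor. Pappalysin-1, the product of Pappa, cleaves IGFBP4 and so releases IGF.

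Library totals ran from 14930394 to 18217818 counts, so that a count of 3 corresponded to 0.162 to 0.195 CPM, the counts scaled to a standard library size with TMM (trimmed mean of M values) factors. Such floors cover counting error only. All 9 markers of satellite cells were detected in every library. Of these, edgeR called 0, against 0.258% of all genes tested, and 4 had an unadjusted p under 0.05, against 7.65%. Pax7 lay at 171, 247 and 283 CPM in the high-fat diet libraries and at 370.4, 405 and 429.7 CPM in the chow libraries (log2 fold change -0.78, SE 0.20, edgeR adjusted p = 0.180). It passed with DESeq2 (adjusted p = 0.0123) and limma-voom (adjusted p = 0.0281). Myf5, another myogenic factor of these cells, averaged 633 ± 158 CPM on the high-fat diet and 623 ± 102 CPM on chow (SD, n = 3 each). The diets did not overlap for 4 of the 9, against 15.3% of all genes tested. These were Itga7 (log2 fold change 0.59) and Chrdl2 (0.56) above chow and Pax7 and Fgfr4 (-0.48) below it. The 9 markers, of which Sdc4 was the most abundant, summed to 4039 to 4979 CPM on the high-fat diet and 4181 to 5028 CPM on chow. Over all genes, 34 of 13202 tested passed edgeR's quasi-likelihood test at a Benjamini-Hochberg adjusted p under 0.05 (0.258%).

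One member of the family changed, by the criterion of that test. Igfbp4 rose 2.82-fold on the high-fat diet, and 9 of the 10 members did not pass. The values of the 2 diets did not overlap for Igfbp4 and Igf1, which lay above chow like 7.42% of all genes tested, and for Igf2, which lay below chow like 7.87%. The receptor genes and the abundant Igfbp5 overlapped between the diets. All 10 members passed the filter on low counts, and their log2 fold changes were positive for 5 and negative for 5, with a median of 0.05 against -0.01 over all genes tested. Values of the diets did not overlap for 3 of the 10, against 15.3% of all genes tested. An unadjusted p under 0.05 was found for 3 of the 10, against 7.65% of all genes tested.

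**Figure D1:**
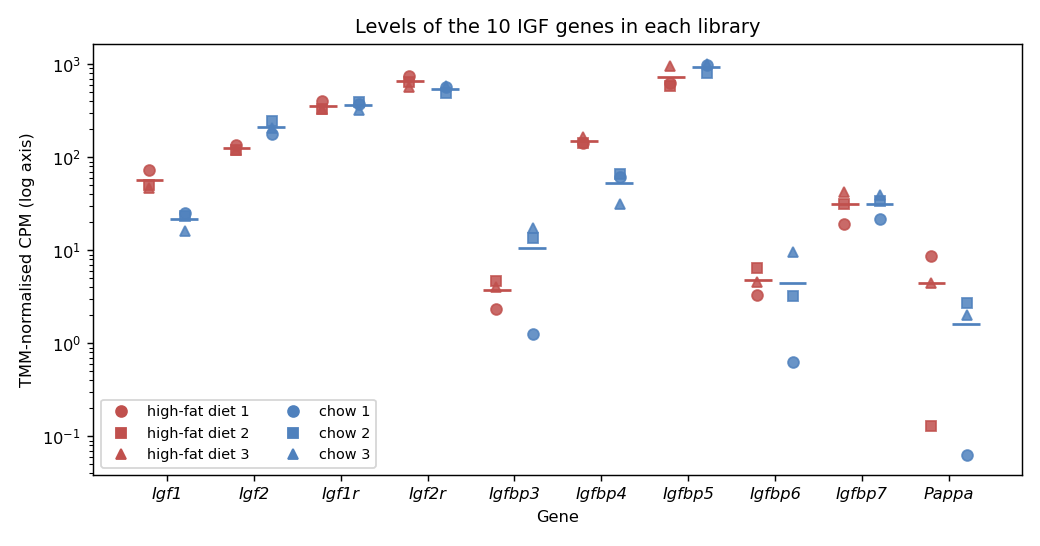
TMM-normalised CPM (log axis) of the 10 genes in each library, with high-fat diet libraries in red left of chow libraries in blue, replicate numbers by symbol and the mean of each diet as a line. Igfbp4 and Igf1 lay higher in all 3 high-fat diet libraries than in any chow library, and Igf2 lay lower. The points of Pappa spread from 0.0628 to 8.71 CPM.

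Igfbp4 and Igfbp5 held most of the binding protein reads, and their upstream sequences are shown because Igfbp4 was the member called and Igfbp5 the most abundant member. The sequences are the 250 bases before a start in RefSeq's promoter table (GRCm38.p6), read 5′ to 3′ on the gene's strand. Capitals mark exact matches to TATAAA, the form of the TATA box searched for. Igfbp4 is on the plus strand (chr11:99040994-99041243) and Igfbp5 on the minus strand (chr1:72874866-72875115). The start after the Igfbp4 window lies 1239 bases inside the RefSeq interval of the gene and is the first base of Igfbp4 in GENCODE M21, and 0 GENCODE exons overlap that window. The start after the Igfbp5 window is the first base of the gene's RefSeq interval, and 1 GENCODE exon reaches into that window.
Igfbp4: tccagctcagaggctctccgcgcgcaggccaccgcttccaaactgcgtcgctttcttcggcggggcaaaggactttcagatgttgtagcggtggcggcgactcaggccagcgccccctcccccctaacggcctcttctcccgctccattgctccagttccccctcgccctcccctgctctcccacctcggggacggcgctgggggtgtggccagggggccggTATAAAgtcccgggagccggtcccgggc
Igfbp5: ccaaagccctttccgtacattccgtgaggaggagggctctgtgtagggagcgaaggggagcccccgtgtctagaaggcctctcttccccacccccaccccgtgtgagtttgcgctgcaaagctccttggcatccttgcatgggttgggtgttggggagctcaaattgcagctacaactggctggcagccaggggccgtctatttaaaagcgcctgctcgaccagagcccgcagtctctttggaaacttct

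The Igfbp4 window held TATAAA once, beginning 28 bases before that start, and had 69.2% G and C and 22 CpG sites. The Igfbp5 window had 58.8% G and C and 10 CpG sites, and no match to TATAAA, to the CCAAT box (CCAAT) or to the GC box (GGGCGG) on either strand. The Igfbp4 window had no match to CCAAT or GGGCGG. Across the 32851 RefSeq windows of this length, TATAAA was found in 12.4%, CCAAT in 33.8% and GGGCGG in 32.7%, and the median window had 52.4% G and C and 6 CpG sites. RefSeq windows matched 9 of the 10 members, all but Pappa. Among them, TATAAA was also present in the window of Igfbp6, 148 bases before its start in the table. The windows of Igf1r, Igf2r and Igfbp7 held 2, 3 and 4 GC boxes, and that of Igfbp3, with 73.2% G and C, held 0. Igf2 has 4 windows in the table, of which 2 held GC boxes. CCAAT was found for Igf1, Igfbp6 and 1 window of Igf2. These matches are letters in a window and do not show binding. Only exact letters were searched for, so a window without a match may still hold a variant of a box.

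The ligands differed from chow in opposite directions. Igf1 (chromosome 10, 87858265 to 87937047, GRCm38.p6) had 72.1, 50.1 and 46.5 CPM in high-fat diet libraries 1, 2 and 3, against 25.2, 23.3 and 16.0 CPM in chow libraries 1, 2 and 3. Every high-fat diet value lay above every chow value. The difference was 2.62-fold (log2 fold change 1.39, SE 0.36), with an unadjusted p of 0.00171 and an adjusted p of 0.195 in edgeR. It passed with DESeq2 (adjusted p = 0.0346) and not with limma-voom (adjusted p = 0.155).

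Igf2 (chromosome 7, 142650768 to 142666816), an imprinted gene expressed from the paternal allele in most mouse tissues, had 135, 120.0 and 120.2 CPM in the high-fat diet libraries and 176.5, 243 and 208 CPM in the chow libraries. The high-fat diet values were close together and all below the lowest chow value. The log2 fold change was -0.74 (SE 0.20, edgeR adjusted p = 0.207, unadjusted p = 0.0020), and the gene passed with DESeq2 (adjusted p = 0.0335) but not with limma-voom (adjusted p = 0.125). Igf1 overlaps Igf1os, and Igf2 overlaps Igf2os and Mir483. The strand setting of the counting is not given in the sources used here, so reads of these overlapping genes cannot be told apart.

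Because the ligands differed in opposite directions, their ratio separated the diets further than either gene. Igf2 exceeded Igf1 in all libraries, by a CPM ratio of 1.87, 2.39 and 2.58 on the high-fat diet and of 6.99, 10.4 and 13.1 on chow. The summed CPM of both ligands was 207, 170.2 and 167 in the high-fat diet libraries and 202, 267 and 224 in the chow libraries. These sums overlapped, since high-fat diet library 1 lay above chow library 1.

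The 2 receptor genes were abundant and overlapped between the diets. Igf1r (chromosome 7, 67952257 to 68233668) had 401, 326 and 333 CPM on the high-fat diet and 378, 388 and 325 CPM on chow. Its log2 fold change was -0.04 (SE 0.17, edgeR adjusted p = 1.00), so that values of either sign lay within 1 SE. Igf2r (chromosome 17, 12682406 to 12769706), which is imprinted and expressed from the maternal allele in most mouse tissues, had 749, 640.3 and 571.5 CPM on the high-fat diet and 571.6, 491 and 577 CPM on chow. High-fat diet library 3 lay within the chow range and the other two above it. The log2 fold change was 0.26 (SE 0.16, edgeR adjusted p = 0.816), and it was 0.16 without high-fat diet library 1. The ratio of Igf2r to Igf1r was 1.87, 1.96 and 1.72 on the high-fat diet and 1.51, 1.27 and 1.77 on chow, and these ranges overlapped. Igf1r overlaps the long noncoding RNA genes Gm51487 and Gm51488, and Igf2r overlaps Airn, so that their reads are uncertain in the same way.

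Igfbp4 encodes the binding protein that is cleaved by pappalysin-1 and, in intact form, inhibits IGF action. Igfbp4 (chromosome 11, 99040005 to 99052655) had 144, 141 and 165 CPM in the high-fat diet libraries, against 61.3, 66.8 and 31.2 CPM in the chow libraries. The lowest high-fat diet value was above the highest chow value, and chow library 3 was the lowest of all. Its counts behind these values were 2211, 2206 and 3055 on the high-fat diet and 977, 1146 and 544 on chow. The log2 fold change was 1.50 (SE 0.28, edgeR adjusted p = 0.0468), which placed it 32nd by p among the 34 genes called. Higher genes made up 12 of those 34 (0.0909% of all genes tested). The gene passed with DESeq2 (adjusted p = 0.000318) and limma-voom (adjusted p = 0.00387). It did not pass when any 1 of the 6 libraries was left out, where the log2 fold change ran from 1.23 (without chow library 3) to 1.70 (without chow library 2) and the adjusted p from 0.0982 to 0.189. In RefSeq, Igfbp4 overlaps no other gene.

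Igfbp5, whose product binds IGF and the extracellular matrix and is made by myoblasts, had the highest level of the family. Igfbp5 (chromosome 1, 72858065 to 72874865) had 622, 583 and 960.4 CPM on the high-fat diet and 988, 804 and 1016 CPM on chow. High-fat diet libraries 1 and 2 lay below every chow library, and library 3 lay within the chow range. The log2 fold change was -0.37 (SE 0.19, edgeR adjusted p = 0.706). It was -0.63 without high-fat diet library 3 and -0.24 without high-fat diet library 2, and with 1 library left out in turn the adjusted p ran from 0.190 to 0.972.

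The composition of the binding protein reads differed more than their sum. Igfbp4 took 18.2%, 18.4% and 14.0% of the reads of the 5 binding protein genes in the high-fat diet libraries and 5.72%, 7.25% and 2.81% in the chow libraries. Igfbp5 took 78.7%, 76.0% and 81.6% on the high-fat diet and 92.1%, 87.2% and 91.3% on chow. Neither share overlapped between the diets, but both genes together held nearly all of these reads, so a higher share of Igfbp4 lowers that of Igfbp5. In the sum without Igfbp4, an alternative chosen after seeing the data, Igfbp5 took 96.1%, 93.1% and 94.9% on the high-fat diet and 97.7%, 94.1% and 93.9% on chow, and these overlapped. The CPM ratio of Igfbp5 to Igfbp4 was 4.33, 4.13 and 5.83 on the high-fat diet and 16.1, 12.0 and 32.5 on chow. The summed CPM of the 5 genes was 911 ± 230 on the high-fat diet and 1036 ± 101 on chow (SD, n = 3 each), a difference of -125 CPM that was smaller than the spread of the high-fat diet libraries. Without 1 library in turn this difference ran from -254 to -54.5 CPM. When each gene's reads were divided by its exon length, Igfbp4 took 18.7% ± 2.71 on the high-fat diet and 6.14% ± 2.63 on chow.

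**Figure D2:**
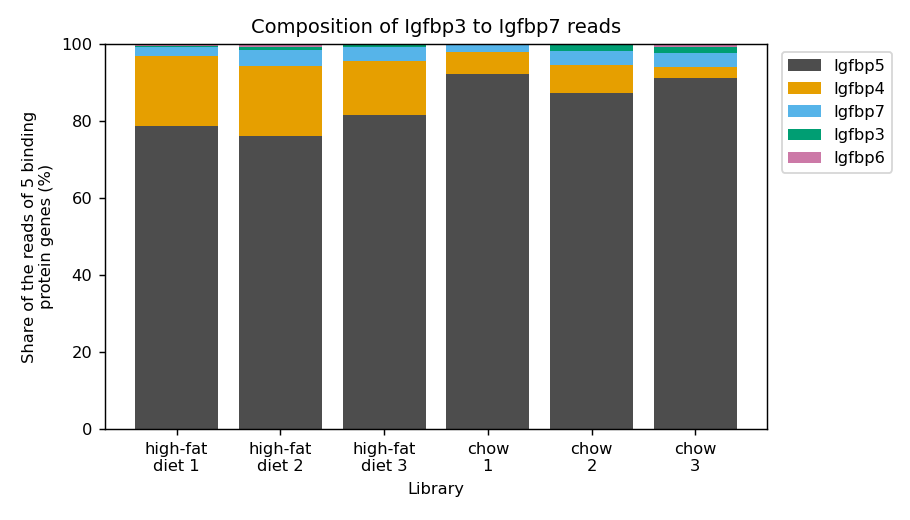
Share (%) of each gene in the summed reads of Igfbp3 to Igfbp7, one stacked bar per library, high-fat diet libraries on the left. The Igfbp4 segment covers 14.0% to 18.4% in the high-fat diet libraries and 2.81% to 7.25% in the chow libraries.

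The remaining binding protein genes were lower than Igfbp5 and varied between libraries of the same diet. Igfbp7, which encodes a secreted protein of low IGF affinity found around blood vessels, had 19.3, 31.7 and 42.5 CPM on the high-fat diet and 21.5, 34.1 and 39.2 CPM on chow (log2 fold change -0.02, SE 0.42). It overlaps Polr2b and Gm34648 at chromosome 5, 77349240 to 77408045, so that its reads are uncertain. Igfbp3, the main IGF carrier in blood, had 2.34, 4.73 and 4.05 CPM on the high-fat diet and 1.26, 13.4 and 17.4 CPM on chow (log2 fold change -1.53, SE 1.04), and the log2 fold change was -0.98 without chow library 3. Igfbp6, which prefers IGF2 as ligand, had 3.32, 6.52 and 4.53 CPM on the high-fat diet and 0.628, 3.21 and 9.47 CPM on chow (log2 fold change 0.11, SE 1.27). The diets overlapped for all of these, and their edgeR adjusted p ran from 0.869 to 1.00. Their counts were as low as 10 in a library (Igfbp6, chow library 1).

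In both diets, library 1 had the lowest value of Igfbp3, Igfbp6 and Igfbp7 within its diet. Of the 10 endothelial markers, 7 were lowest in high-fat diet library 1 among the libraries of that diet, and 6 were lowest in chow library 1. Pecam1, for example, had 4.94, 42.0 and 41.5 CPM on the high-fat diet and 22.3, 32.4 and 65.7 CPM on chow. Egfl7 had 0.0650, 7.23 and 8.85 CPM on the high-fat diet and 0.188, 4.55 and 8.67 CPM on chow. Kdr, Tek and Tie1 were not lowest in library 1 of either diet. Tek was highest there, with 183, 132 and 169 CPM on the high-fat diet and 216, 194 and 105 CPM on chow. None of the 10 was at 0 in every library, and their sum, led by Tek, ran from 246 to 410.2 CPM on the high-fat diet and from 281 to 376 CPM on chow. The lowest sum was in library 1 on the high-fat diet and in library 3 on chow. The sum of the mural cell markers, most of it from Notch3, was lowest in library 1 of both diets (536 and 703 CPM). On chow, library 3 was close to it, at 705 CPM. Rgs5, Pdgfrb, Acta2 and Notch3 were lowest in library 1 of both diets. Kcnj8 and Myh11 were lowest there on the high-fat diet only, and Cspg4 in neither diet. The part of endothelial or mural cells in the values of the binding proteins was not tested. In bulk samples, fewer cells of a type and less RNA per cell cannot be told apart.

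**Figure D3:**
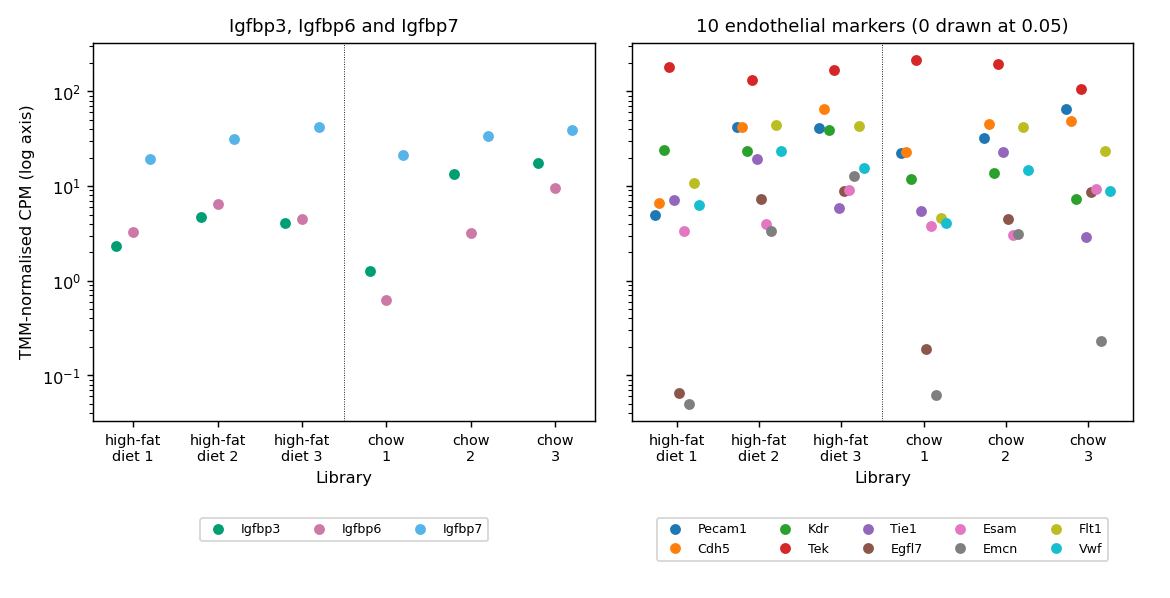
TMM-normalised CPM (log axis) in each library of Igfbp3, Igfbp6 and Igfbp7 (left panel) and of the 10 endothelial markers (right panel, a value of 0 drawn at 0.05), high-fat diet libraries left of the dotted line. Library 1 of each diet holds the lowest points of the 3 binding protein genes within its diet.

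Pappa, the gene of the IGFBP4 protease, was barely detected in some libraries. Pappa (chromosome 4, 65124174 to 65357509) had 134, 2 and 83 counts in the high-fat diet libraries and 1, 47 and 35 counts in the chow libraries. This corresponded to 8.71, 0.128 and 4.48 CPM on the high-fat diet and 0.0628, 2.74 and 2.01 CPM on chow. High-fat diet library 2 and chow library 1 were under the floor of 3 counts, and the diets overlapped. The log2 fold change of 1.46 had an SE of 1.78 (edgeR adjusted p = 0.976), and over the alternatives it ran from 0.53 to 2.09.

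The CPM ratios between members given above were not divided by exon length. The order of the members is therefore given as CPM per kilobase of exon. On the high-fat diet the order was Igfbp5 (120.2 ± 34.6), Igf2r (70.2 ± 9.59), Igfbp4 (33.9 ± 2.94), Igfbp7 (25.8 ± 9.60), Igf2 (21.9 ± 1.50), Igf1r (21.1 ± 2.46), Igf1 (5.68 ± 1.40), Igfbp6 (4.31 ± 1.46), Igfbp3 (1.18 ± 0.393) and Pappa (0.403 ± 0.389). On chow it was Igfbp5 (156 ± 19.1), Igf2r (58.7 ± 5.14), Igf2 (36.6 ± 5.85), Igfbp7 (26.1 ± 7.51), Igf1r (21.7 ± 2.01), Igfbp4 (12.0 ± 4.34), Igfbp6 (3.99 ± 4.09), Igfbp3 (3.41 ± 2.69), Igf1 (2.17 ± 0.494) and Pappa (0.145 ± 0.126; SD, n = 3 for each value). Igfbp4 thus stood in place 3 on the high-fat diet and in place 6 on chow. On the high-fat diet, the library values overlapped between Igfbp4 and Igfbp7, Igfbp7 and Igf2, Igf2 and Igf1r, Igf1 and Igfbp6, and Igfbp3 and Pappa. On chow they overlapped between Igf2 and Igfbp7, Igfbp7 and Igf1r, Igfbp4 and Igfbp6, Igfbp6 and Igfbp3, and Igfbp3 and Igf1. The other neighbours in these orders did not overlap.

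The diet differences of the family and of the named genes around it were plotted together. Beside the 10 members, 26 other genes of the IGF axis were examined: further binding proteins, proteases and their inhibitors, adaptors of the receptor, the insulin receptor, and RNA-binding proteins of Igf2 messenger RNA. Of these, 17 passed the filter on low counts and edgeR called 0 of them, against 0.258% of all genes tested. Those with an unadjusted p under 0.05 numbered 5 (3 higher and 2 lower), against 7.65% of all genes tested, and DESeq2 and limma-voom each called 1, against 1.5% and 0.75% of all genes tested. The median log2 fold change of the 17 was 0.09, and values of the diets did not overlap for 6 of them, against 15.3% of all genes tested. Igfbp2, Igfbpl1 and Insrr had no counts in any library, and Igfbp1 had 1 count in all.

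**Figure D4:**
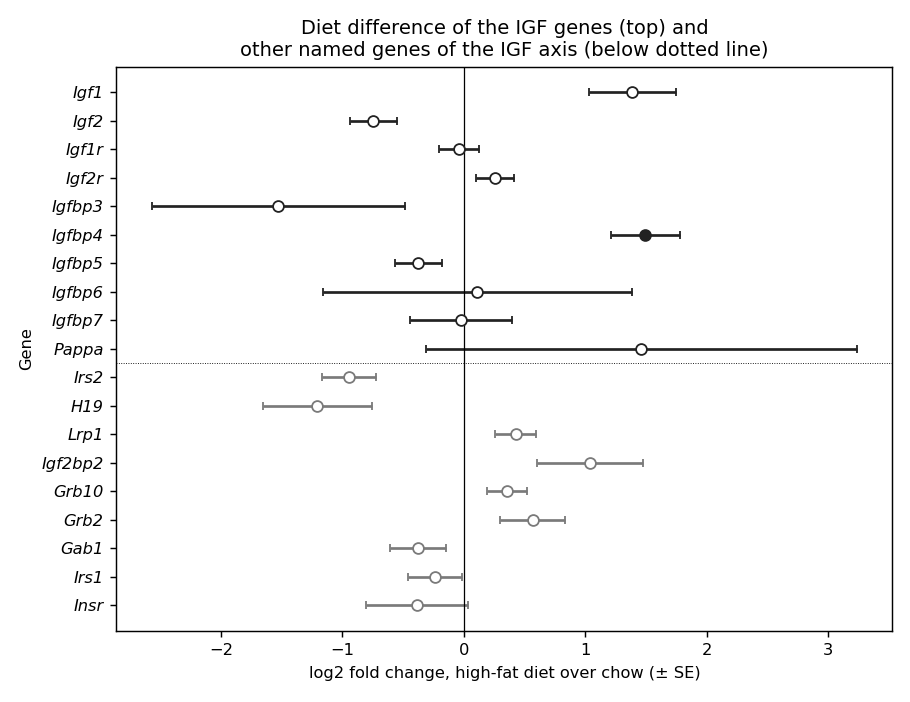
Log2 fold change of high-fat diet over chow with its SE from edgeR for the 10 members (above the dotted line) and 9 other genes of the IGF axis (below it, in grey). A filled point passed the test over all genes, which only Igfbp4 did. Pappa, Igfbp6 and Igfbp3 have the widest SEs.

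Irs2, the insulin receptor substrate that relays signals of both the IGF1 and the insulin receptor, had the smallest p of these 17. It had 191, 238 and 361 CPM in the high-fat diet libraries, against 514, 563 and 444 CPM in the chow libraries, with no overlap. Its log2 fold change was -0.94 (SE 0.22, edgeR adjusted p = 0.146). It was the gene that DESeq2 (adjusted p = 0.00267) and limma-voom (adjusted p = 0.00645) called. Irs1, its paralogue, had 142, 155 and 99.7 CPM on the high-fat diet and 136, 184 and 148 CPM on chow (log2 fold change -0.24, SE 0.22, edgeR adjusted p = 0.939). Insr, the insulin receptor, had 20.0, 53.1 and 54.1 CPM on the high-fat diet and 74.3, 60.3 and 31.1 CPM on chow (log2 fold change -0.38, SE 0.42, edgeR adjusted p = 0.961). The values of Irs1 and Insr overlapped between the diets. In RefSeq, Irs2 lies over the long noncoding RNA gene 9530052E02Rik, so that its reads are uncertain in the way given for Igf1 and Igf2. The same holds for H19, Grb10, Lrp1 and Gab1 below, which also overlap other genes.

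H19, a noncoding RNA of the imprinted cluster that holds Igf2, had 10.7, 20.5 and 18.5 CPM on the high-fat diet and 25.3, 36.7 and 52.6 CPM on chow (log2 fold change -1.21, SE 0.45, edgeR adjusted p = 0.469). H19 and Igf2 thus both lay lower in every high-fat diet library than in any chow library. Grb10, an imprinted adaptor that dampens signals of the insulin and IGF1 receptors, had 659.7, 605 and 532 CPM on the high-fat diet and 410.3, 461 and 531 CPM on chow (log2 fold change 0.36, SE 0.16, edgeR adjusted p = 0.643). The lowest high-fat diet value of Grb10 was barely above the highest chow value.

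None of the remaining named genes of the axis passed, and 3 of these lay above chow in every library, against 7.42% of all genes tested. They were named for the smallest p in the list, which favours such separation. Igf2bp2, which encodes an RNA-binding protein of Igf2 messenger RNA, had 38.0, 38.0 and 28.6 CPM on the high-fat diet and 19.5, 20.8 and 10.5 CPM on chow (log2 fold change 1.04, SE 0.44, edgeR adjusted p = 0.570). Lrp1, an endocytic receptor that also binds IGFBP3, averaged 1031 ± 165 CPM on the high-fat diet and 767 ± 137 CPM on chow (log2 fold change 0.43, SE 0.17, edgeR adjusted p = 0.530). Grb2, an adaptor towards Ras, averaged 93.4 ± 17.8 CPM on the high-fat diet and 62.9 ± 15.1 CPM on chow (log2 fold change 0.57, SE 0.27, edgeR adjusted p = 0.654). Gab1, a docking protein, had the opposite sign and averaged 123 ± 29.3 CPM on the high-fat diet and 159 ± 31.1 CPM on chow (log2 fold change -0.38, SE 0.23, edgeR adjusted p = 0.818; SD, n = 3 each). The stanniocalcin gene Stc1, whose product inhibits pappalysins, ran from 0 to 239 counts in the high-fat diet libraries and from 0 to 174 counts in the chow libraries.

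The profile of Igfbp4 over the 6 libraries was compared with those of 10889 genes, by the root mean square difference of log2 CPM after centring each gene on its own mean. The nearest was Kdr, a receptor of vascular endothelial growth factor, at 0.200 log2 units, followed by Clip3 at 0.242, Scml4 at 0.248, Mtx1 at 0.267 and Pitx3 at 0.282. The median over the genes compared was 1.08. Kdr, which is also among the endothelial markers, had 24.3, 23.8 and 39.3 CPM on the high-fat diet and 11.9, 13.7 and 7.29 CPM on chow. It was the only 1 of those 10 markers whose diets did not overlap, against 15.3% of all genes tested. Of the 10, 7 had positive and 3 negative log2 fold changes, with a median of 0.16. edgeR called 0 of them, against 0.258% of all genes tested. None of these 5 genes passed the test over all genes in edgeR (adjusted p from 0.286 to 0.978). Of the other members, Igf1 was the nearest to Igfbp4, at 0.303 and in 10th place, and Igf2r followed at 0.787 in 1897th place. These distances include the difference between the diets, so genes with a log2 fold change like that of Igfbp4 (1.50) tend to lie near it. The log2 fold changes of the 5 nearest genes ran from 1.08 to 1.60, and that of Igf1 was 1.39. Nearness is therefore not separate evidence of a shared profile.

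Markers of other cell types that the sort could hold were examined beside Igfbp4 and Igf1, both of which are also expressed by fibro-adipogenic progenitors, the mesenchymal cells of muscle. Of 10 markers of these progenitors, 9 were tested. None passed in edgeR (0 of 9, against 0.258% of all genes tested). Serping1 alone passed with DESeq2 (adjusted p = 0.00265) and limma-voom (adjusted p = 0.0230), against 1.5% and 0.75% of all genes tested. Of the 9, 7 had positive and 2 negative log2 fold changes, against 6536 and 6666 over all genes tested. Their median was 0.21, against -0.01. The diets did not overlap for 1 of the 9, Serping1, against 15.3% of all genes tested. The sum of the 10 markers ran from 1596 to 1843 CPM on the high-fat diet and from 1262 to 1431 CPM on chow, without overlap. Serping1, their most abundant member, averaged 638 ± 29.0 CPM on the high-fat diet and 421 ± 19.2 CPM on chow (SD, n = 3 each), and without it the sums overlapped, at 972 to 1176 CPM on the high-fat diet and 824 to 1031 CPM on chow. None was at 0 in every library, and the defining marker Pdgfra had 5.27, 0 and 4.48 CPM on the high-fat diet and 5.02, 8.28 and 3.50 CPM on chow. The part of these cells in the values of Igf1 and Igfbp4 was not tested.

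Immune markers, given because macrophages of muscle also make Igf1, summed to 7.93 to 25.3 CPM on the high-fat diet and 18.9 to 49.7 CPM on chow. C1qa and Cd3e were at 0 in every library and Ptprc did not exceed 0.377 CPM, and Cd68 was the most abundant. Their part in the values of Igf1 was not tested. Mural cell markers summed to 536 to 782 CPM on the high-fat diet and 703 to 807 CPM on chow, most of it from Notch3. Tenocyte markers summed to 22.7 to 32.4 CPM on the high-fat diet and 32.1 to 53.2 CPM on chow, led by Mkx. Myofibre markers, led by Tnnt3, summed to 9.91 to 23.1 CPM on the high-fat diet and 18.9 to 32.3 CPM on chow.

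The fits of Igfbp4, Igf1, Igf2 and Irs2 kept the direction of each gene in all 16 alternatives. The log2 fold change of Igfbp4 ran from 1.23 to 1.70, that of Igf1 from 1.00 to 1.52, that of Igf2 from -0.85 to -0.62 and that of Irs2 from -1.24 to -0.75. The adjusted p ran from 6.18e-06 to 0.208 for Igfbp4, from 0.0346 to 0.644 for Igf1, from 0.0335 to 0.616 for Igf2 and from 0.000557 to 0.469 for Irs2 over these fits. The call of Igfbp4 held in 7 of the 16, that of Irs2 was made in 4, that of Igf1 in 2 and that of Igf2 in 1. High-fat diet library 1 and chow library 3 stood apart from the other 4 in an earlier analysis of these data, which is not shown here. With both left out, Igfbp4 had a log2 fold change of 1.26 and an adjusted p of 0.208 in edgeR.

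**Figure D5:**
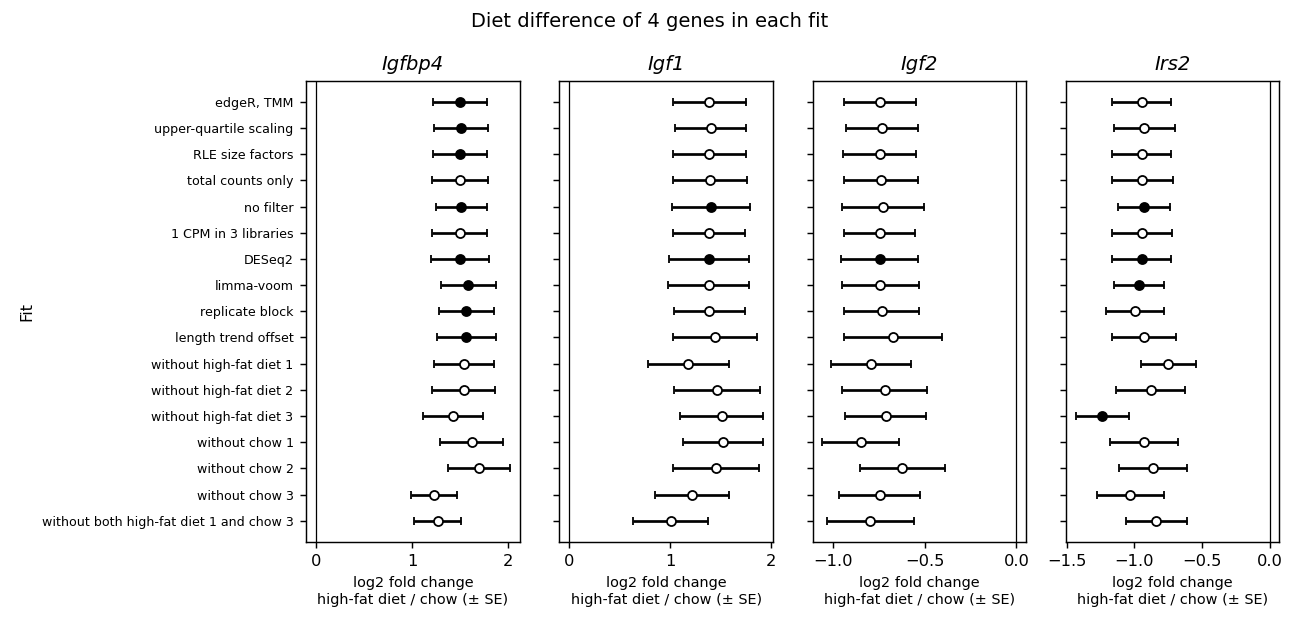
Log2 fold change of high-fat diet over chow with its SE for Igfbp4, Igf1, Igf2 and Irs2 in the main fit (top) and 16 alternatives, where a filled point has an adjusted p under 0.05. All points of a gene lie on the same side of 0, and Igfbp4 is open in each fit with 1 library left out.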

How the data were processed

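RNA-seq counts per Entrez gene ID were deposited by the authors as whole numbers, 1 file per library, without normalization. Bowtie2, featureCounts and the builds GRCm38 and mm10 are named in the submitters' processing notes. Versions, annotation release, strand setting and the treatment of multiply mapped reads are not given in the sources used here. RefSeq (GRCm38.p6) and GENCODE M21 gave symbols to 25293 of 27179 IDs. Exon lengths are the union of GENCODE M21 exons, which may differ from the annotation used in counting.

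Differential expression was tested with edgeR 4.0.16 under R 4.3.3 (filterByExpr, minimum count 10; TMM; quasi-likelihood F test, two-sided, diet as the only factor). The p-values were adjusted by Benjamini-Hochberg over all 13202 genes tested. An SE is the size of the log2 fold change over the root of its F statistic. Alternatives were 3 other scalings, limma-voom (limma 3.58.1), DESeq2 1.42.0, no filter, a filter of 1 CPM in 3 libraries, the replicate number as a block, a length trend (loess, span 0.3) as offset, and libraries left out. Log2 CPM used a prior count of 2. No pair of libraries of a diet agreed within sampling noise (chi-square per degree of freedom 60.3 to 90.8), and all were kept as separate replicates.

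All members were named, the other IGF axis genes with the smallest p up to 8 with Insr, Irs1 and Irs2, the 5 genes over 2 CPM nearest to Igfbp4, Pax7, Myf5 and the most abundant gene of each marker list, apart from a list that is not reported here. Itga7, Chrdl2, Fgfr4, Stc1, Pecam1, Egfl7, the mural markers other than Notch3 and the genes at or near 0 counts were named after their values were seen. Members and lists were chosen with earlier results of these data known. Amino acid sequences are not used here.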

Additional observations from a re-analysis of the deposited data

How the results depend on the processing

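The number of genes called over all genes was 34 of 13202 tested. It was 198 with DESeq2 and 99 with limma-voom, also of 13202, 163 of 19427 without a filter and 19 of 11869 with the length trend. Of the 10 IGF genes 1 was called, and it was 0 when libraries were scaled by total counts only (Igfbp4 adjusted p = 0.0533) or with at least 1 CPM in 3 libraries (adjusted p = 0.0567), 2 without a filter (Igfbp4 and Igf1) and 3 with DESeq2 (Igfbp4, Igf1 and Igf2). Of the other IGF axis genes 0 were called, and 1 (Irs2) was called without a filter, with DESeq2 and with limma-voom. With 1 library left out in turn the counts ran from 9 to 44 over all genes, from 0 to 0 for the IGF genes and from 0 to 1 for the other axis genes, the 1 being Irs2 without high-fat diet library 3 (log2 fold change -1.24). Without high-fat diet library 1 and chow library 3 together 1 gene was called over all genes and 0 of the IGF genes. The sign turned for Igfbp6 with the length trend (log2 fold change -0.093). With libraries left out, singly or both named ones together, the log2 fold change ran from -0.40 to 1.53 for Igfbp6, turning without high-fat diet library 2, chow library 1 or chow library 2. It ran from -0.31 to 0.42 for Igfbp7, turning without high-fat diet library 1, chow library 2, chow library 3 or both named libraries, and from -0.21 to 0.011 for Igf1r, turning without high-fat diet library 2, high-fat diet library 3 or chow library 2. The other members kept their direction in all 16 alternatives. Except for fits with fewer libraries or genes, the cause of these shifts was not tested.

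The labels do not say that equal replicate numbers mark a shared animal or batch. Deviations of same-numbered libraries had correlations of 0.02, 0.03 and -0.03 across genes, so that the numbers were not taken to pair the libraries, and not every library correlated best with its own number. With the replicate number as a block, 45 genes passed over all genes, 1 of the 10 IGF genes (Igfbp4, adjusted p = 0.0369) and 0 of the other axis genes. Depth limits Pappa, Igfbp3 and Igfbp6, whose libraries held as few as 1, 20 and 10 counts.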
